A study of Homo sapiens with 10 samples.

Results

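The metallothionein genes MT1E, MT1F, MT1G, MT1H, MT1M, MT1X and MT2A were followed through exposure of pancreatic tumour cells to stellate cell supernatant. The members were all probe sets whose only gene symbol in the platform annotation was one of these 7, which gave 11 of the 54675 probe sets on the arrays. No probe set listed a member beside other symbols. RNA of MiaPaCa-2, a human pancreatic cancer line, was measured on 10 Affymetrix expression arrays. The 8 treated arrays held cells exposed for 1, 2, 3, 4, 5, 6, 7 or 24 h to supernatant of pancreatic stellate cells that had themselves been primed with pooled supernatant of 8 tumour cell lines. The 2 control arrays held MiaPaCa-2 cells at 0 h and at 24 h, and what the controls received in place of the supernatant is not given in the sources used here. There was 1 array at each time and nothing states that arrays came from separate cultures, so a p-value here reflects the spread among the arrays at hand alone, which may be technical. In these bulk samples, a change in RNA per cell cannot be told apart from a change in the share of cells that carry it.

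Metallothioneins are short, cysteine-rich proteins that hold zinc and copper and also bind cadmium. Their genes are switched on by the zinc-sensing transcription factor MTF1, which binds metal response elements in their promoters, and also answer to oxidative stress, glucocorticoids and inflammatory cytokines. MT1 and MT2 proteins occur in most tissues, while MT3 is known from brain and MT4 from stratified squamous epithelium. All 7 members lie on chromosome 16, within a run of 15 annotated genes that begins with MT2A and ends with MT1X, and 14 of the 15 are metallothionein genes or pseudogenes.

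The promoters of MT2A, MT1H and MT1X are shown for their metal response elements, and these 3 because they are the members that matched an entry in the RefSeq promoter table (build GRCh38.p14), which covers 250 bases before the gene's start and 50 from it on. Capitals mark matches to the core of the element, searched as TGCACNC and TGCGCNC on both strands, and no matches overlapped. The windows are chr16:56608334-56608633, chr16:56669564-56669863 and chr16:56682220-56682519, all on the plus strand.
MT2A: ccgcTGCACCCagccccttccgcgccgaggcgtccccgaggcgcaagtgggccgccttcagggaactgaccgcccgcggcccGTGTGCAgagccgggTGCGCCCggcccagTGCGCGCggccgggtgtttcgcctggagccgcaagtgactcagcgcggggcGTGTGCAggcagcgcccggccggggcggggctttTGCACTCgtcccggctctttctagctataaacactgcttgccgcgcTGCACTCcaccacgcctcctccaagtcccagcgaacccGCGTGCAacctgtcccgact
MT1H: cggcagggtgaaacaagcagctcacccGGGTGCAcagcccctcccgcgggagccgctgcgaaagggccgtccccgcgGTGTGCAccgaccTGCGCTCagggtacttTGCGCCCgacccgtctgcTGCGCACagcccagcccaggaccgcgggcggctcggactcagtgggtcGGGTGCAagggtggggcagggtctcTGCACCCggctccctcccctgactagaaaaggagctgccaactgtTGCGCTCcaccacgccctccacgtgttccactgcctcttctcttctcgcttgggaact
MT1X: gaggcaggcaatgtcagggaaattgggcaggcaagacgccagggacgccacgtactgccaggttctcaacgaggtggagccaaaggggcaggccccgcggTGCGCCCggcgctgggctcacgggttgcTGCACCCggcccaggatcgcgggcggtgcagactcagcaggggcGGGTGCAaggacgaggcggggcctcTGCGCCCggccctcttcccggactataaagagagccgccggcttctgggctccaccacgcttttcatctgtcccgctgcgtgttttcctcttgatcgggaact
MT2A and MT1H each held 8 matches, 5 on the forward and 3 on the reverse strand, and MT1X held 4. At least 1 match was present in 29.6% of 35116 promoters of the same length, 4 or more in 0.601% and 8 or more in 0.0199%. MT1H and MT1X shared the placement of a pair of matches, at bases -78 to -72 and -53 to -47 from the gene's start. A match describes letters in the window and is not evidence of a bound site.

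Values were log2 intensities that the authors had made with RMA, a method that scales arrays to one another and summarises each probe set. Of the 11 probe sets, 9 carry the suffix x_at, which Affymetrix gives to sets whose probes can also match other transcripts, and 2 do not. The x_at sets cover MT1E (2 sets), MT1F (2), MT1X (2), MT1G, MT1H and MT2A, so a change in one of these may include signal of its near-identical copies. One of the MT1X sets, 204326_x_at, carries a reference accession of MT1L, a transcribed pseudogene of the same cluster. The sets without the suffix are 217546_at for MT1M and 210472_at for MT1G. For the tests 1 probe set stood for each gene, the one with the highest mean over the 10 arrays. All 7 members passed the filter on mean level (log2 5.79, the 40th percentile of genes) and were tested among 11865 genes.

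Quartiles of the values were close across arrays, with medians from 5.50 to 5.61. The 2 h array had the narrowest spread, with a 75th percentile of 7.50 against 7.63 to 7.76 elsewhere. Of the markers of the tumour line, KRT8, KRT18, KRT19 and VIM lay between log2 11.34 and 14.57 on every array, while EPCAM (2.87 to 3.20) and CDH1 (3.32 to 3.90) lay under the filter level throughout. CDKN2A, a gene known to be deleted in this line, read 6.66 to 7.30 on its brightest probe set, an x_at set, which stands above the filter level. Of 10 stellate or fibroblast markers, 4 were under the filter level on every array. Above it on every array were COL1A2 (11.31 to 12.23), ACTA2 (8.35 to 9.18), COL1A1 (7.85 to 8.30) and COL3A1 (6.12 to 7.33). DCN (5.02 to 6.25) and THY1 (5.65 to 6.37) lay on both sides of it. The mean level of the 10 was 6.04 to 6.37 in treated arrays and 6.23 to 6.27 in controls. RMA values never reach 0, so no marker is listed at 0. At hours 4 to 7, 2 of 5 fibroblast markers tested were lower than in the controls, COL1A2 and COL3A1 (-0.60 and -0.86, limma adjusted p = 0.00871 and 0.0113), while ACTA2 stood at 0.28 (adjusted p = 0.156). Of 5 tumour line markers tested 1 was higher, KRT8 (0.53, adjusted p = 0.0462), with KRT18 at 0.30, VIM at -0.13, KRT19 and CDKN2A at -0.16 and a list median of -0.13. Of all genes, 7.6% were called higher in hours 4 to 7, and the share called lower was not computed. The part of these marker changes in the metallothionein changes was not tested.

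MT1M had the largest fitted change among the genes tested in both windows of exposure, from controls not shown to be above background. Its level was log2 4.12 in the 0 h control and 5.06 in the 24 h control, both under the filter level, so it passed the filter on mean level through the treated arrays where it is high. In treated cells it was 9.31 at 1 h, 10.93 at 2 h, 11.51 at 3 h, 11.44 at 4 h, 11.62 at 5 h, 11.48 at 6 h, 11.60 at 7 h and 7.69 at 24 h. The arrays of 1 to 7 h lay above both controls, as for 6.81% of all genes, and so did the 24 h array, as for 28.4%. From 3 h to 7 h the values kept within 0.18 of one another. At its peak at 5 h MT1M was 94.2-fold above the 24 h control. Its distance from the 0 h control depends on how low values are treated, being 181-fold as deposited and 102-fold with values under log2 4.95 raised to that level. The 4 to 7 h change was then 6.53 in place of 6.94. No detection calls were used here, so whether the control signal exceeded background was not tested.

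MT2A, usually the most abundantly expressed human metallothionein, showed the smallest change of the 7. It was log2 13.70 in the 0 h control and 13.88 in the 24 h control. In treated cells it was 14.30, 14.46, 14.52, 14.55, 14.53, 14.55 and 14.57 at 1 to 7 h and 14.09 at 24 h. The arrays of 1 to 7 h were above both controls, as for 6.81% of all genes. So was the 24 h array, as for 28.4% of all genes, although it was only 0.21 above the 24 h control. At 7 h this probe set was 0.21 under the brightest value of its array (14.78), so little range was left above it.

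MT1X, MT1E and MT1H, further zinc-binding members of the MT1 group, rose by about the same amount on the probe sets standing for them. On 208581_x_at MT1X was log2 12.83 at 0 h, 13.98, 14.22, 14.36, 14.34, 14.35, 14.38 and 14.37 at 1 to 7 h of treatment, 13.54 at 24 h of treatment and 13.24 in the 24 h control. MT1E on 212859_x_at was 13.15 in the 0 h control, 14.22, 14.45, 14.48, 14.50, 14.54, 14.50 and 14.51 at 1 to 7 h, 13.68 at 24 h and 13.61 in the 24 h control. MT1H was 12.39 at 0 h, 13.39, 13.63, 13.72, 13.69, 13.72, 13.70 and 13.71 at 1 to 7 h, 13.002 at 24 h and 12.77 in the 24 h control. For all 3 genes the first 7 h stood clear of both controls, as for 6.81% of all genes, and the level changed little after 3 h.

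MT1F and MT1G showed larger differences than these 3 on the probe sets standing for the genes. MT1F on 217165_x_at was log2 11.76 at 0 h, 13.34, 13.82, 13.86, 13.82, 13.86, 13.88 and 13.90 at 1 to 7 h of treatment, 12.61 at 24 h of treatment and 12.39 in the 24 h control. MT1G on 204745_x_at was 11.56 at 0 h, 12.93, 13.39, 13.36, 13.33, 13.36, 13.43 and 13.43 at 1 to 7 h, 12.26 at 24 h and 12.19 in the 24 h control. On these sets the arrays of 1 to 7 h lay above both controls for either gene, which held for 6.81% of all genes. The 24 h treated values were above both controls too (28.4% of all genes) but lay close to the 24 h control.

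**Figure D1:**
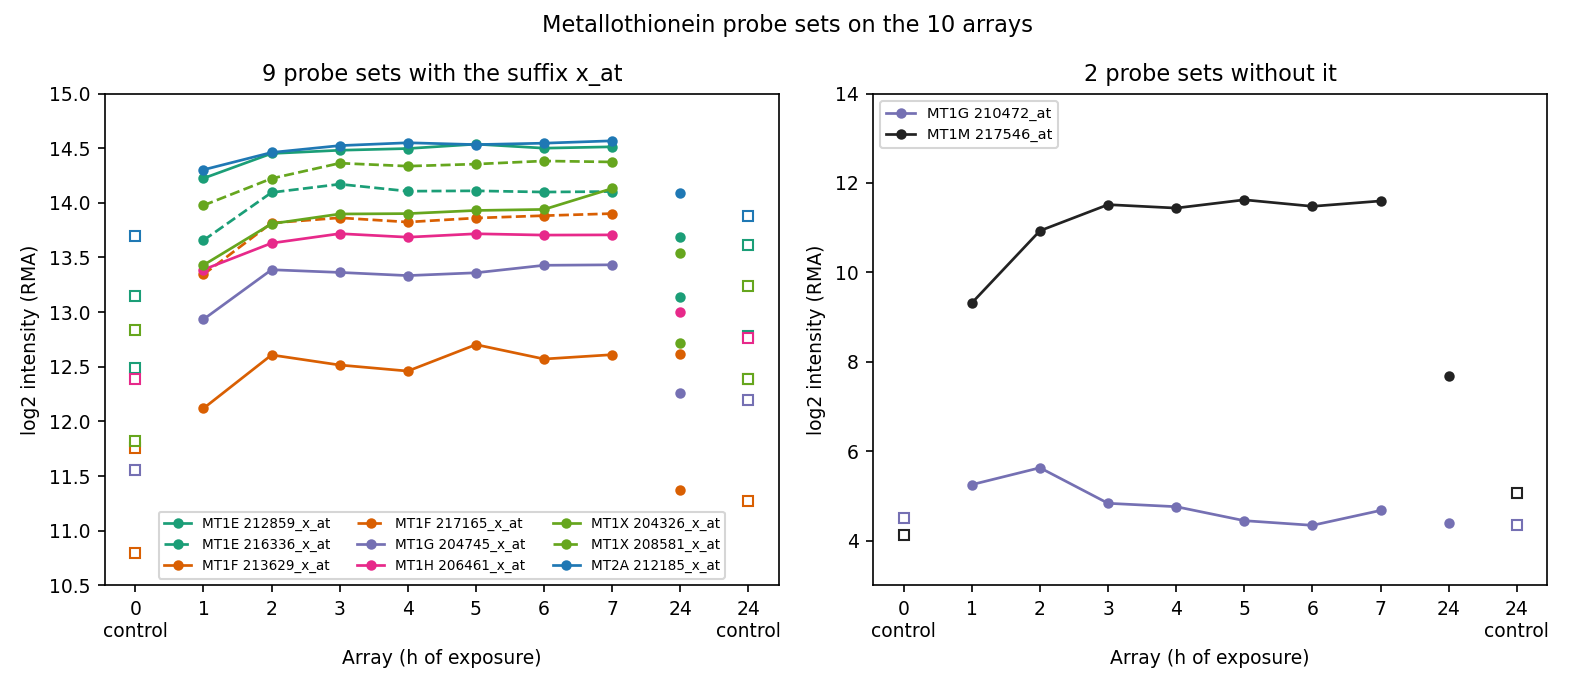
Level (log2 intensity) of the 11 metallothionein probe sets by array, with treated arrays as filled points, those of 1 to 7 h joined by lines, and controls as open squares. Where a gene has a pair of x_at sets, the one with the higher number is dashed. The 9 x_at sets and MT1M were above both controls at 1 h and spanned 0.03 to 0.24 over the arrays of 3 to 7 h, while MT1G 210472_at stayed between 4.34 and 5.63.

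The second probe sets of MT1X, MT1E and MT1F followed the first in course but not in size. Their changes at hours 4 to 7, in a fit of each probe set on its own, were 1.87 ± 0.17 for MT1X 204326_x_at, 1.47 ± 0.14 for MT1E 216336_x_at and 1.55 ± 0.16 for MT1F 213629_x_at, where ± is the standard error of the limma fit. In the same fit the first sets stood at 1.32 for MT1X, 1.13 for MT1E and 1.79 for MT1F, and MT1G 204745_x_at at 1.51. The ranking of the genes by size therefore depends on the set. On its second set MT1X lay above both MT1F sets and this MT1G set. The MT1G sets disagreed. On 210472_at MT1G was log2 4.50 at 0 h, 5.25, 5.63, 4.83, 4.76, 4.45, 4.34 and 4.68 at 1 to 7 h, 4.40 at 24 h of treatment and 4.36 in the 24 h control, so from 5 h on its treated values mixed with the controls. Its mean was under the filter level, and the rise of MT1G therefore rests on an x_at set alone. Of the 10 member probe sets that passed the filter, all were higher in hours 1 to 3 and in hours 4 to 7 (adjusted p under 0.05), against 0.689% and 3.96% of 32805 probe sets. The MT1M set is 1 of these 10 and passed through its treated arrays. Its control mean was log2 4.59, under the filter level of 4.95 for probe sets.

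Over the 10 arrays, Pearson's r between pairs of the 9 x_at sets ran from 0.982 to 0.999 (36 pairs). The sets share arrays and may share target sequence, so these are not separate readings of the genes. MT1M, whose set lacks the suffix, had r from 0.977 to 0.997 with the 9, while MT1G 210472_at had r from 0.299 to 0.370. Among the 9 x_at sets, brighter control signal went with a smaller 4 to 7 h change (r = -0.75 over 9 sets). That change is counted from the same control mean, which by itself tilts r towards negative values. Some of the 9 sets also belong to the same gene. Brightness here describes the signal of a probe set and not the amount of an RNA, and whether a limit of the scanner's range compressed the brighter sets was not tested.

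In hours 1 to 3, all 7 genes were above the 2 controls by the limma test, with Benjamini-Hochberg adjustment over all genes. MT1M was in the test through its high treated arrays, which favours such a call. The other 6, called as well, stood above the filter level in the controls too. MT1M rose by 5.99 ± 0.51 (adjusted p = 0.000834), MT1F by 1.60 ± 0.19 (adjusted p = 0.00415) and MT1G by 1.35 ± 0.18 (adjusted p = 0.00900). MT1X rose by 1.15 ± 0.14, MT1E by 1.01 ± 0.14 and MT1H by 1.00 ± 0.13, with adjusted p from 0.00440 to 0.00839. MT2A rose by 0.64 ± 0.10 (adjusted p = 0.0137). The median change of the 7 was 1.15, against -0.04 for all genes, and 0.843% of genes were called higher. Against the 24 h control alone, 3 of the 7 passed, namely MT1M, MT1F and MT1X, and the adjusted p was 0.0525 for MT1E, 0.0561 for MT1G, 0.0557 for MT1H and 0.104 for MT2A. Without the 2 h array 4 passed, and MT1E (0.0509), MT1G (0.0520) and MT2A (0.0658) did not.

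In hours 4 to 7, all 7 were again higher, and 7.6% of all genes were. Here too MT1M was in the test through its high treated arrays, which favours such a call. The other 6 stood above the filter level in the controls as well. The change was 6.94 ± 0.48 for MT1M (limma adjusted p = 0.000314), 1.79 ± 0.18 for MT1F (adjusted p = 0.00152) and 1.51 ± 0.18 for MT1G (adjusted p = 0.00264). MT1X rose by 1.32 ± 0.13, MT1E by 1.13 ± 0.13, MT1H by 1.13 ± 0.12 and MT2A by 0.76 ± 0.09, with adjusted p from 0.00152 to 0.00278. The median was 1.32, against -0.01 for all genes. Leaving out any of the 9 arrays left 7 of 7 called, also with the 24 h control alone, where the changes ran from 0.67 for MT2A to 6.47 for MT1M.

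**Figure D2:**
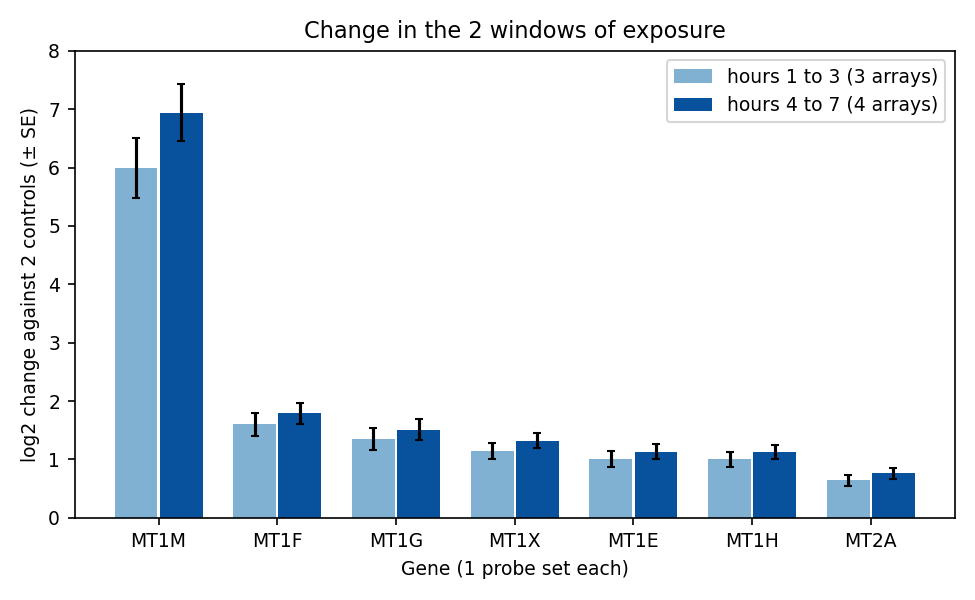
Change in log2 intensity of each metallothionein gene against the 2 controls, in hours 1 to 3 (light bars) and hours 4 to 7 (dark bars), with standard errors of the limma fit. MT1M stands at 5.99 and 6.94 and the other 6 between 0.64 and 1.79.

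**Figure D3:**
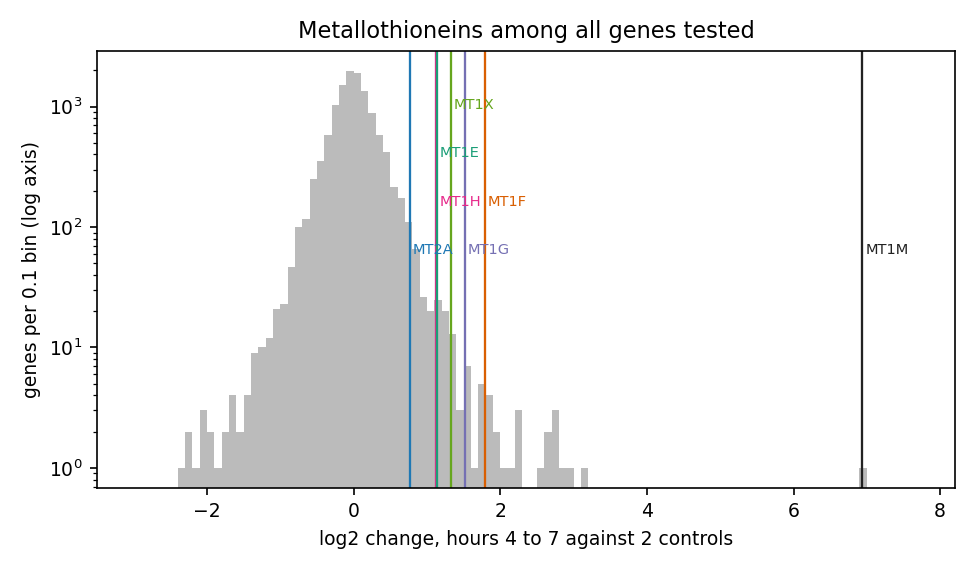
Distribution of the log2 change at hours 4 to 7 against the controls over 11865 genes (grey, log vertical axis), with the 7 metallothionein genes marked by lines. MT1M has the largest change of all genes, 6.94, from controls under the filter level, and MT2A the smallest of the 7, 0.76.

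For all 7 genes the 7 arrays from 1 to 7 h lay above both controls, which held for 6.81% of genes. With the 24 h treated array included, the comparison of 8 treated with 2 control arrays gave changes from 0.66 ± 0.13 for MT2A to 6.11 ± 0.92 for MT1M. None of the 7 passed (limma adjusted p from 0.0561 to 0.125), while 0.0506% of all genes were called higher, although the unadjusted p was under 0.05 for all 7. Without the 24 h treated array all 7 passed (adjusted p from 0.000637 to 0.0107), and without the 1 h array MT1M did (0.0345).

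Most of the log2 rise was present by 2 h. Taking the highest array of 1 to 7 h as the peak, the 1 h array had reached 69.2% to 77.5% of the peak log2 rise over the 0 h control in the 7 genes. The 2 h array had reached 87.8% to 97.6%. For MT1M the 2 h value was still 61.9% of the peak on the linear scale, and the step from 2 h to 3 h was 0.58 log2. At 7 h the sets standing for MT2A, MT1E and MT1X lay 0.21 to 0.40 under the brightest value of the array. Those of MT1F, MT1H, MT1G and MT1M lay 0.88 to 3.18 under it. Whether a limit of range bears on the later course was not tested. Against the 24 h control the 1 h shares were 59.8% to 66.2%. From 3 h to 7 h the highest and lowest arrays differed by 0.18 for MT1M and by 0.03 to 0.10 for the other 6 on the probe set standing for the gene. On their further sets MT1F 213629_x_at and MT1X 204326_x_at they differed by 0.24 and 0.23.

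Few differences within the exposure passed a test. Between hours 1 to 3 and hours 4 to 7, MT1M differed by 0.95 ± 0.43 (limma adjusted p = 0.140) and the other 6 by 0.12 to 0.19, with 0 of 7 called and 12.2% of all genes called higher. The unadjusted p of MT1M there was 0.0510, and it was the only one under 0.1. Without the 3 h array MT1M passed, at 1.41 (adjusted p = 0.0368). On a straight line over 1 to 7 h, MT1M rose by 0.29 ± 0.09 per hour (adjusted p = 0.0437) and the other 6 had slopes of 0.03 to 0.06 that did not pass, against 16.6% of genes called rising. The call of MT1M ended without the 1 h array, where the slope was 0.10 (adjusted p = 0.115), and when the 2, 4, 5 or 6 h array was left out (0.0532 to 0.0821). A quadratic term was negative in all 7 genes and passed in none (MT1M, -0.13 ± 0.03 per squared hour, limma adjusted p = 0.103), while 0.177% of genes had a negative term that passed. Its unadjusted p was under 0.05 for MT1M alone (0.00260).

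At 24 h of exposure all 7 genes had come down from their 7 h level. The 24 h treated array differed from the 7 h array by -3.91 for MT1M, -1.29 for MT1F, -1.18 for MT1G, -0.83 for MT1X and MT1E, -0.70 for MT1H and -0.48 for MT2A. It remained above both controls for all 7, which was so for 28.4% of genes. Over the 24 h control MT1M stood at 2.62, a 6.16-fold difference, and the other 6 at 0.06 (MT1G) to 0.30 (MT1X), or 1.05-fold to 1.23-fold. Of all genes, 2.24% were higher by 1 log2 unit or more in this pair of arrays, and among the 7 only MT1M was. Over the 0 h control MT1M stood at 3.57 (2.74 with values under log2 4.95 raised to that level) and the other 6 at 0.39 to 0.86.

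These figures depend on the control because the controls were apart. The 24 h control was above the 0 h control for all 7 genes, by 0.94 for MT1M (0.11 with low values raised to log2 4.95), 0.64 for MT1F, 0.63 for MT1G, 0.47 for MT1E, 0.41 for MT1X, 0.38 for MT1H and 0.18 for MT2A, and 45.2% of all genes were higher in it. Of the peak log2 rise, 37.2% to 47.5% was present at 24 h against the 0 h control, but 5.18% to 39.99% against the 24 h control. MT1G had the lowest share on either reckoning. MT1M had the highest against the 24 h control, but its 47.5% against the 0 h control became 41.0% with low values raised, below MT1H (46.3%), MT1X (46.0%) and MT2A (45.2%). Each of these is a difference between 2 arrays, with no replicate and no test.

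**Figure D4:**
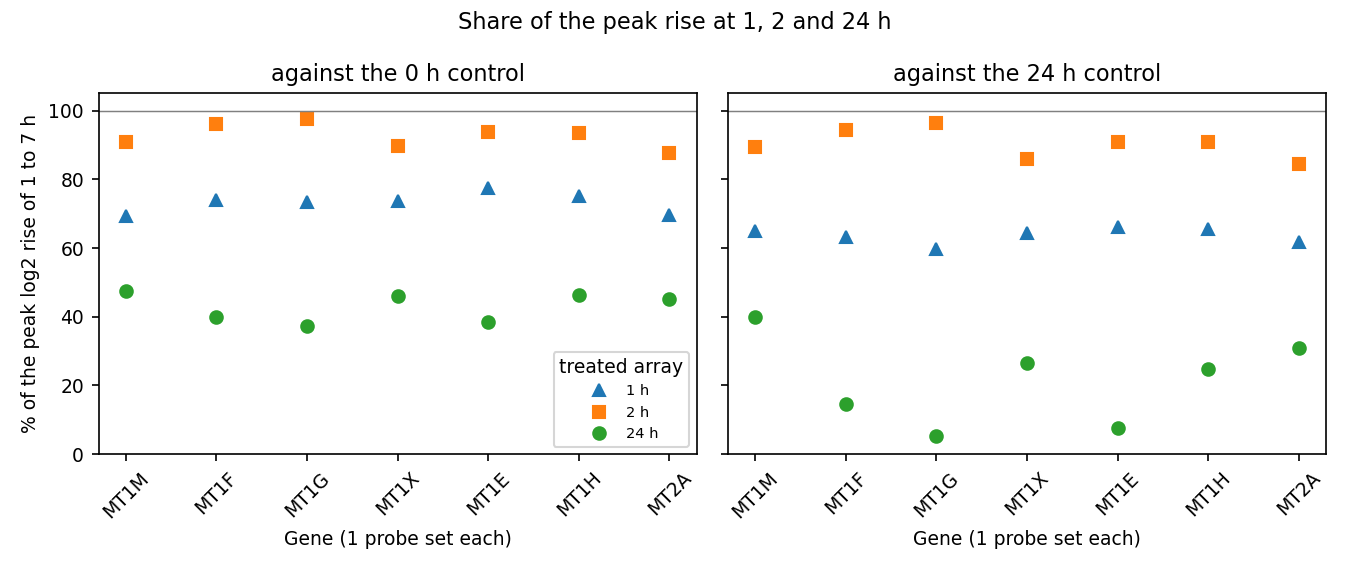
Log2 rise in the 1, 2 and 24 h treated arrays as a percentage of the peak rise of 1 to 7 h, against the 0 h control (left) and the 24 h control (right), for 7 genes. At 24 h the shares lie between 37.2% and 47.5% on the left and between 5.18% and 39.99% on the right.

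Of 12 other metallothionein genes and pseudogenes looked for, 3 had a probe set under their symbol alone. MT1HL1, a close copy of the MT1 genes on chromosome 1, rose by 0.98 ± 0.13 in hours 1 to 3 (limma adjusted p = 0.00839) and 1.07 ± 0.12 in hours 4 to 7 (adjusted p = 0.00264). Its x_at set had r from 0.987 to 0.999 with the 9 member x_at sets over the 10 arrays. Its first call ended without the 2 h array (adjusted p = 0.0509) or without the 0 h control (0.0525). MT3, the brain form, and MT4, the form of squamous epithelium, lay at log2 5.66 to 6.37 on all arrays and did not pass in either window (adjusted p from 0.212 to 0.787).

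Of 21 zinc transport and sensing genes tested, 2 rose in hours 1 to 3, and in hours 4 to 7 1 rose and 2 fell, with median changes of -0.03 and 0.07. Of all genes, 0.843% were called higher in hours 1 to 3 and 7.6% in hours 4 to 7. The share of all genes called lower was not computed. SLC30A1, the zinc exporter of the plasma membrane, was log2 8.58 at 0 h, 13.08, 13.37, 13.13, 12.46, 11.37, 10.51 and 9.33 at 1 to 7 h, 10.06 at 24 h of treatment and 10.37 in the 24 h control. By 7 h it lay between the controls, whereas the metallothioneins were still at their height. In hours 1 to 3 it was 3.72 ± 0.76 above the controls (limma adjusted p = 0.0426), a call that was lost when any of the arrays of 1, 2, 3, 5 or 6 h (0.0509 to 0.150) or the 0 h control (0.246) was left out. Its change from hours 1 to 3 to hours 4 to 7 was -2.27 ± 0.64 (limma adjusted p = 0.0383, rising to between 0.0626 and 0.140 when the array of 1, 2, 3, 5, 6 or 7 h was left out). With an intensity trend and robust prior in limma, SLC30A1 passed neither in hours 1 to 3 (adjusted p = 0.0676) nor between the windows (0.0675). SLC30A7, which loads zinc into the Golgi, rose by 0.69 ± 0.11 and 0.50 ± 0.11 in the windows (adjusted p = 0.0193 and 0.0170). The first call ended without the 2 h array (0.0728) or the 0 h control (0.0646), the second without the 24 h control (0.0790). The mean of its probe sets gave 0.19 in hours 1 to 3 (adjusted p = 0.268). SLC39A10 and SLC39A1, zinc importers, fell by 0.89 ± 0.18 and 0.52 ± 0.11 in hours 4 to 7 (both adjusted p = 0.0139). Neither passed against the 24 h control alone (0.0737 and 0.0642). MTF1, the zinc sensor, read 7.93 to 8.82 and did not pass (0.32 ± 0.17 in hours 4 to 7, adjusted p = 0.251). SLC30A1 and MTF1 lie outside the rule for named genes and were chosen after their values were seen. Whether zinc bears on the metallothionein course was not tested.

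Other inducers of metallothioneins have their own target genes. Of 9 NRF2 and haem targets tested, which answer to oxidative stress, 2 rose in hours 1 to 3 (median 0.90) and 1 in hours 4 to 7 (median 0.06). For this list and the heat shock list below, the shares of all genes called higher were 0.843% and 7.6% in these windows. The early calls were HMOX1 (3.71 ± 0.71, limma adjusted p = 0.0347) and OSGIN1 (0.90 ± 0.13, 0.0126). With an intensity trend and robust prior in limma, HMOX1 did not pass in hours 1 to 3 (adjusted p = 0.0610). HMOX1 lost its call when the array of 2, 3, 5 or 6 h or the 0 h control was left out (0.0602 to 0.217), and OSGIN1 when the 2 h array (0.0506) or the 0 h control (0.101) was. HMOX1, which degrades haem, was log2 7.95 at 0 h, 11.53, 12.44, 12.86, 12.65, 11.85, 11.17 and 9.80 at 1 to 7 h, 7.81 at 24 h of treatment and 9.18 in the 24 h control. It was 2.80 ± 0.68 above the controls in hours 4 to 7 (limma adjusted p = 0.0254). Leaving out the 0 h control, the 5 h array or the 6 h array gave adjusted p of 0.130, 0.0611 and 0.0543. Of 5 heat shock genes tested, 0 passed in hours 1 to 3 in limma, although HSPA6 stood at 3.18 ± 0.70 (adjusted p = 0.0513, unadjusted p = 0.00104). HSPA6 did pass with the mean of its probe sets (0.0468), with cyclic loess scaling (0.0478), in the deposited filtered table (0.0170) and when the 1 h array (0.0169), the 4 h array (0.0322) or the 24 h control (0.0495) was left out. In hours 4 to 7 HSPH1, a chaperone, rose by 0.69 ± 0.18 (adjusted p = 0.0298), a call lost when the array of 4, 5 or 6 h or the 24 h control was left out (0.0562 to 0.162). Both HMOX1 and HSPA6 peaked at 3 h and declined while the metallothioneins held their level. Whether oxidative stress or heat shock bears on the metallothionein course was not tested.

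Of 8 glucocorticoid targets tested, 2 rose and 2 fell in hours 4 to 7 (median 0.10). Of all genes, 0.843% were called higher in hours 1 to 3 and 7.6% in hours 4 to 7. The share of all genes called lower was not computed. DUSP1, a phosphatase acting on MAP kinases, and NFKBIA, an inhibitor of NF-kB, rose by 1.23 ± 0.16 and 1.54 ± 0.13 (limma adjusted p = 0.00376 and 0.000639). TSC22D3, known as a glucocorticoid-induced leucine zipper protein, fell by 1.31 ± 0.16 (adjusted p = 0.00282), and KLF9, a transcription factor, also fell, by 1.22 ± 0.25 (adjusted p = 0.0139, which became 0.0521 against the 24 h control alone). Of 7 copper handling genes tested, 0 passed in hours 1 to 3 in limma (unadjusted p under 0.05 in 0) and 1 rose in hours 4 to 7, SLC31A2, a copper transporter, by 0.37 ± 0.11 (adjusted p = 0.0473). SLC31A2 did not keep this call with no filter (0.0747), with the intensity trend and robust prior (0.0579) or in the deposited filtered table (0.101). That call was lost, at 0.0606 to 0.239, when the 24 h control or the array of 2, 4, 5, 6 or 7 h was left out.

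**Figure D5:**
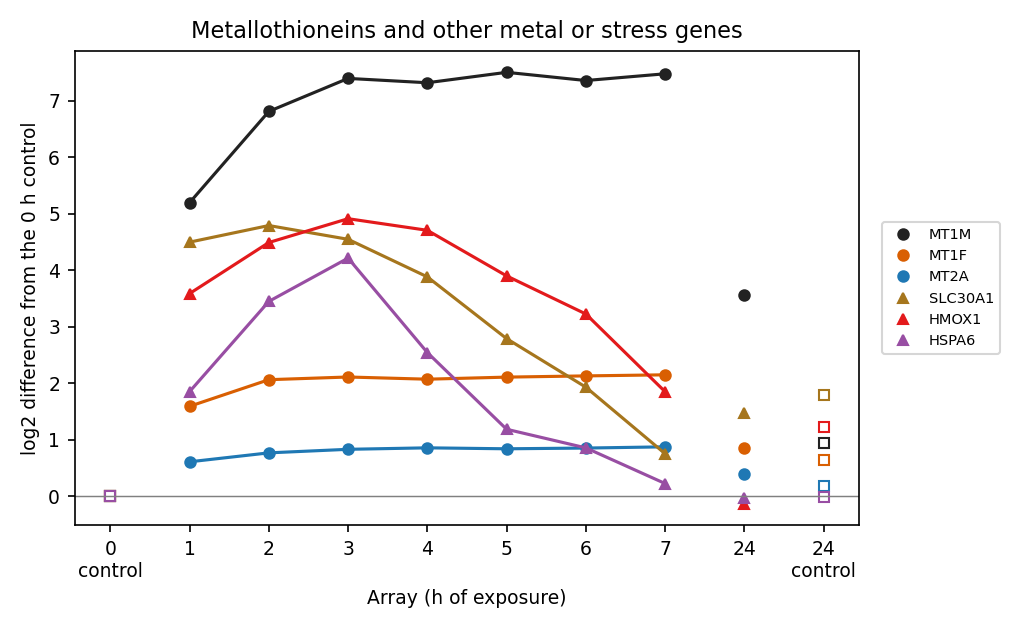
Log2 difference from the 0 h control by array for MT1M, MT1F and MT2A (circles) and for SLC30A1, HMOX1 and HSPA6 (triangles), with controls as open squares. The metallothioneins are level from 3 to 7 h, while the other 3 fall over those hours, SLC30A1 from 13.13 to 9.33 in level.

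The genes with the course most like the metallothioneins were sought by Pearson's r with the mean of the 7 centred and scaled profiles over the 10 arrays, among 1613 other genes whose arrays spanned 1 log2 unit or more. They were MT1HL1 (r = 0.997), SPIDR (0.991), CXCL5 (0.987), CEBPD (0.986) and CXCL3 (0.975). CEBPD encodes an acute-phase transcription factor, CXCL5 and CXCL3 are chemokines that attract neutrophils, and SPIDR is a scaffold of DNA repair. CEBPD was log2 9.64 at 0 h, 10.90, 11.04, 11.10, 11.17, 11.21, 11.05 and 11.002 at 1 to 7 h, 10.33 at 24 h of treatment and 9.91 in the 24 h control. In hours 4 to 7 CEBPD was 1.34 ± 0.11, SPIDR 2.26 ± 0.20, CXCL5 1.26 ± 0.15 and CXCL3 2.73 ± 0.23 above the controls. They were picked on the same arrays for a course high in treated and low in control arrays. A test of that difference was bound to favour them, so its p-values are not given for the probe sets they were picked on. The controls of SPIDR (log2 4.76 at 0 h and 5.51 at 24 h) lay under the filter level. SPIDR therefore passed the filter through its treated arrays, as MT1M did. CXCL5 stands on an x_at set. On its set without the suffix it did not pass in hours 1 to 3 (1.00, limma adjusted p = 0.0875) and rose between the windows by 0.86 (adjusted p = 0.0357). The likeness rests on arrays that the genes share and is given without a test.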

How the data were processed

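The deposited table holds log2 intensities of 54675 probe sets, which the authors computed by RMA; the submitters' processing notes name it without a version. A filtered table of 7622 probe sets was also deposited and served as an alternative, with values equal within 5e-09. Groups and hours came from the labels. Probe sets with 1 gene symbol in the platform annotation gave 19775 genes, 1 probe set each (highest mean), and 11865 genes at or above the 40th percentile of mean level were tested. In limma 3.58.1 (R 4.3.3), lmFit and eBayes compared treated with control arrays (10 arrays), the windows of 3 and 4 arrays with the controls and each other (9 arrays, 6 residual degrees of freedom), and fitted hour over 7 treated arrays, with two-sided p-values adjusted by Benjamini-Hochberg at 0.05. The fits were also run on simulated data with independent noise, flat windows and alike controls. Such data lack the time trends and the gap between controls seen here, so that run does not bear on these limits. Hours of one window served as its replicates, so their spread also holds any time trend, and the number of arrays limits the precision. Genes named beside the members are the other metallothioneins, up to 4 per list by p in hours 4 to 7, and the 5 most alike in course. The members and lists were chosen with earlier results of these data known. Alternatives are given in the closing section. Python 3.11.15 was used for tables and plots.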

Additional observations from a re-analysis of the deposited data

Results flagged for a closer look

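In 5 of the 11 probe sets the 24 h treated array stood apart below the other 7 treated arrays, by its gap to the nearest array as a share of the whole range (critical value 0.526 for 8 arrays). The share was 0.634 for MT1E 212859_x_at, 0.576 for MT1G 204745_x_at, 0.567 for MT1F 217165_x_at, 0.561 for MT1F 213629_x_at and 0.540 for MT1H 206461_x_at. The 8 arrays differ in hour of exposure, so this describes the distance of 24 h from 1 to 7 h. Chance flags about 1 in 20 groups.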

How the results depend on the processing

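There was 1 array a time, the 2 controls were apart, and the x_at probe sets may share targets. Single genes read on those sets can therefore not be resolved. The MT1M set lacks the suffix, but no probe sequences were at hand, so whether it reads MT1M alone was not tested. Of 784 values recomputed for single genes or probe sets, 737 kept direction and side of the threshold, 25 came to pass it, 17 no longer passed and 5 changed sign; the cause was not tested unless stated. In the fit of each probe set on its own, MT1M 217546_at was the only member set to pass in treated against control (limma adjusted p = 0.0495). Among treated against control, where 0 of 7 genes passed, 1 did with no filter, with the mean over probe sets or with an intensity trend and robust prior. In the deposited filtered table, where fewer genes were tested, 4 did. Leaving out an array gave 0 to 7, with 7 without the 24 h treated array. In hours 1 to 3 and in hours 4 to 7 the 7 of 7 became 1 of 1 with only probe sets without the suffix x_at, since MT1M alone was left. MT1M was in the main tests through its high treated arrays. Leaving out an array gave 3 to 7 in hours 1 to 3 and 7 throughout in hours 4 to 7. Between the windows leaving out an array gave 0 to 1. The 1 slope that passed became 0 with no filter, cyclic loess scaling or the 0 h control added as hour 0, 2 with the mean of probe sets and 4 with the trend and robust prior, and 0 to 1 when an array was left out. With each probe set on its own, 1 slope passed (MT1X 204326_x_at, 0.09 per hour) and 0 without a filter. The quadratic term passed in 0 genes, in 2 with the trend and robust prior, in 1 in the filtered table and in 0 to 1 when an array was left out. The changes of sign were in values that passed in neither setting. With the mean of its probe sets MT1G stood at -0.26 between the windows, -0.0557 for the slope and 0.0065 for the quadratic term, and when an array was left out the quadratic term ran from -0.0409 to 0.0018 for MT1F and from -0.0308 to 0.0096 for MT1G. Cyclic loess scaling shifted single arrays' medians by up to 0.119 and changed no call of the 7 members in the windows against the controls, while HSPA6 in hours 1 to 3 (adjusted p = 0.0478) and SLC39A4 in hours 4 to 7 (0.0387) came to pass. No paired analysis was possible because the labels give hours and no replicate numbers, and the groups share only 24 h.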
